A study of Mus musculus with 12 samples.

Results

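The response of Nox4 KO skin fibroblasts to TGF-β2 was read from the 6 Nox4 KO libraries among the 12 libraries of the study. Of these, 3 were unstimulated Nox4 KO controls and 3 were Nox4 KO cells given TGF-β2 at 10 ng/ml for 24 h, and each control library was set against the stimulated library with the same replicate number. The members are the genes with a mean of at least 1 CPM (the read count of a gene scaled to a common library total) in at least 1 of the 2 groups, which kept 11935 of the 21556 genes in the table. All Nox4 KO cells carried the Nox4tm1Kkr allele in the strain B6.129-Nox4tm1Kkr/J, the controls included. They were primary cells grown out of abdominal skin and starved of serum before stimulation, and so they were cultures on plastic that had been expanded in passage rather than cells in tissue. The other 6 libraries, 3 WT controls and 3 WT samples given TGF-β2 in the same way, are labelled C57BL/6 and are used only where the response of both genotypes is compared. By the methods of the study both lines were founded from littermates of heterozygous parents and then bred apart. Neither the ages of the mice nor whether the 3 replicates came from separate mice is stated in the labels, so the p-values measure the spread between these samples, which may in part be technical.

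TGF-β2 is a member of the TGF-β family of cytokines. It is secreted in a latent complex, and once released it binds type II and type I serine/threonine kinase receptors that phosphorylate SMAD2 and SMAD3, which enter the nucleus with SMAD4 and act with partner factors such as AP-1 on target genes. Skin fibroblasts respond by laying down matrix, by inhibiting its breakdown and by turning into contractile myofibroblasts marked by smooth muscle α-actin, the product of Acta2. NOX4 is an NADPH oxidase that releases hydrogen peroxide, its transcript is a known target of TGF-β in fibroblasts, and mice without it have been used to ask whether it is needed for this conversion.

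The 6 libraries held between 36353708 and 43796260 counted reads, so that 3 reads, the most that a count of 0 allows, corresponded to between 0.0685 and 0.0825 CPM. In a principal component analysis of the tested genes the first component, with 63.6% of the variance, separated the stimulated libraries from the controls, and the second, with 25.7%, set both libraries of replicate 3 apart from those of replicates 1 and 2. Among 14 fibroblast markers all passed the filter, with a summed level of 37326 to 46701 CPM in control and 32769 to 40717 CPM after TGF-β2. The summed level of 9 keratinocyte markers was 1.82 to 5.31 CPM over the 6 libraries, and that of 6 adipocyte markers 0 to 0.213 CPM. The 9 endothelial markers summed to 20.6 to 32.5 CPM in control and 17.8 to 18.8 CPM after TGF-β2, mostly from Kdr, while Cldn5 had no read. The 6 pericyte markers summed to 237 to 324 CPM in control and 596 to 674 CPM after TGF-β2 with no overlap, nearly all of it from Cspg4, at 109, 105 and 45.7 CPM in control and 431, 352 and 174 CPM after TGF-β2, and Mcam, at 193, 218 and 189 CPM in control and 241, 268 and 419.8 CPM after TGF-β2. The other pericyte markers, Rgs5, Kcnj8, Abcc9 and Higd1b, were each below 2 CPM in all 6 libraries. The part of either cell type in the results was not tested. The 14 markers of macrophages and other leukocytes differed by replicate number. They summed to 173, 67.3 and 37.5 CPM in the controls of replicates 1, 2 and 3 and to 126, 45.3 and 25.3 CPM after TGF-β2, so that each stimulated library was below the control of its own number. In bulk RNA, fewer cells of a type and less RNA per cell cannot be told apart.

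Nox4 itself gave 2.67, 2.59 and 5.69 CPM in control and 18.5, 17.9 and 27.9 CPM after TGF-β2. The stimulated libraries were all above the controls, and replicate 3 was the highest in both groups. The log2 fold change was 2.70 (SE 0.13, adjusted p = 0.000173). In the WT libraries Nox4 was at 6.01, 5.32 and 9.87 CPM in control and 44.4, 34.8 and 66.4 CPM after TGF-β2. The table counts reads over the whole gene and does not show the exons they fell on, so transcript of the exons left in the targeted allele is counted, and the value does not check the deletion.

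After TGF-β2, 351 genes were called higher and 863 lower in Nox4 KO cells, which were 2.94% and 7.23% of the 11935 genes tested and 10.2% together. Below, a gene is said to rise or fall where its adjusted p-value by the quasi-likelihood test of edgeR, with replicate numbers as blocks, was under 0.05, and to be called where it also changed by at least 2-fold. Without the fold limit 3049 genes rose, or 25.5%, and 3430 fell, or 28.7%, which together were 54.3% of the genes tested. Without the replicate block 1805 rose and 1782 fell, and 292 and 657 were called. Both groups were fully apart, with no overlap between stimulated and control values, in 5765 genes, or 48.3%, and 1057 of the 1214 called genes were among these. Changes of at least 4-fold were called in 98 genes that rose and 209 that fell, and of at least 8-fold in 31 and 67. The called genes that rose took 2.09% to 2.83% of the reads of a control library and 6.12% to 6.87% of a stimulated library, while those that fell took 3.66% to 3.95% and 1.17% to 1.46%. The median log2 fold change over all tested genes was -0.014. Scaling by library size alone in place of TMM lowered this median by 0.103, and the share of rises among genes changed at any fold was then 29.9% in place of 47.1%, or 36.0% with upper-quartile scaling. Among the called genes the share of rises was 28.9%, against 22.0% by library size alone.

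**Figure D1:**
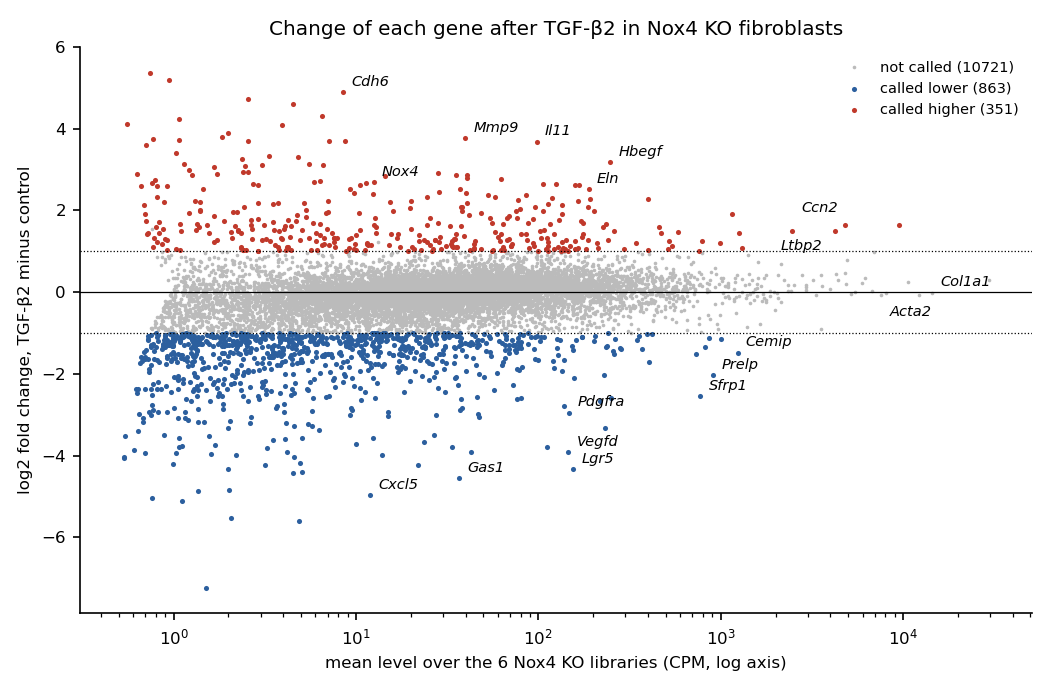
Mean level over the 6 Nox4 KO libraries (horizontal log axis, CPM) against the log2 fold change of TGF-β2 over control (vertical axis) for the 11935 tested genes, 1 point a gene, with called genes in colour and dotted lines at 2-fold. The 863 genes called lower lie mostly at lower levels than the 351 called higher, with median levels in the higher group of 7.68 and 19.4 CPM.

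The largest rises included genes of secreted factors, proteases and adhesion molecules. Among called genes whose groups did not overlap and whose higher group reached 5 CPM, Cdh6, a classical cadherin of kidney and mesenchyme, rose most. It was at 0.601, 0.455 and 0.66 CPM in control and 24.8, 18.2 and 6.33 CPM after TGF-β2 (log2 fold change 4.90 ± 0.34, where the error, here and below, is the SE of the fit over 3 pairs). The chemokine gene Ccl17 followed with 0.261, 0.527 and 0.33 CPM in control and 11.6, 9.25 and 5.19 CPM after TGF-β2 and a log2 fold change of 4.61 ± 0.25. Ctsw, a cysteine protease known from cytotoxic lymphocytes, rose by 4.32 ± 0.36, and its gene overlaps Fibp, so that reads of both genes cannot be told apart where they overlap without knowledge of strand. The remaining large rises were in Acsbg1 (4.08), an acyl-CoA synthetase, the gelatinase gene Mmp9 (3.77), Pdgfb (3.71), Ccbe1 (3.69), whose product aids VEGF-C processing, Il11 (3.68), the transcription factor gene Sox8 (3.34), Adgra1 (3.30), Hbegf (3.18), the neuropeptide gene Npy (3.14), Prss46 (3.12), Pgf (3.12) and Tfpi2 (2.93), all as log2 fold changes. In each of these 15 genes the lowest stimulated library was above the highest control, as the rule that chose them required.

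Il11 and Hbegf combined a large rise with a substantial level. Il11, a cytokine of the interleukin-6 family, was at 15.7, 21.1 and 7.23 CPM in control and 219, 254 and 71.3 CPM after TGF-β2, with a log2 fold change of 3.68 (SE 0.10, adjusted p = 0.000106). Replicate 3 was the lowest in both groups, and the change within the pair was still large. Hbegf, a ligand of the EGF receptor, was at 43.6, 57.7 and 55.1 CPM in control and 527, 489 and 320.4 CPM after TGF-β2, with a log2 fold change of 3.18 (SE 0.20, adjusted p = 0.000336). Below 5 CPM, larger rises were seen in Gpbar1, a bile acid receptor gene, with a mean of 0.0346 ± 0.0154 CPM (SD, n = 3) in control, or 4 reads in all 3 libraries, and 1.44 ± 0.8 CPM after TGF-β2, and in the costimulatory receptor gene Cd40, at 0.105, 0.192 and 0.303 CPM in control and 3.85, 5.53 and 5.38 CPM after TGF-β2.

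Some of the largest falls reached levels close to 0, while others, such as that of Lgr5, did not. Ppp1r3c, which targets a phosphatase to glycogen, went from 14.1, 7.67 and 7.04 CPM to 0.0466, 0.32 and 0.166 CPM. The neutrophil chemokine gene Cxcl5 was at 29.0, 21.1 and 19.4 CPM in control and 0.723, 0.548 and 0.783 CPM after TGF-β2 (log2 fold change -4.96 ± 0.15). Gas1, a growth arrest gene and Hedgehog coreceptor, was at 78.2, 47.4 and 85.3 CPM in control and 1.86, 1.62 and 5.38 CPM after TGF-β2, with -4.56 ± 0.27. Lgr5, a receptor for R-spondins, was at 289, 227 and 369 CPM in control and 7.60, 8.17 and 34.6 CPM after TGF-β2, with -4.34 ± 0.38, and replicate 3 kept the most of it. Its gene overlaps a second annotated gene. The other falls of this size were in Dio3 (-4.44), Il33 (-4.40), Arhgap20 (-4.24), the alcohol dehydrogenase gene Adh1 (-4.23), Il1rn (-4.17), Tspan11 (-4.03), Rerg (-3.99), the potassium channel gene Kcnj2 (-3.92), Vegfd (-3.91), Fgf10 (-3.91) and Rassf2 (-3.80), as log2 fold changes. Ppp1r3c changed by -5.60 ± 0.39 and was at -4.80 without replicate 1 and -6.47 without replicate 2, and Adh1 at -4.82 without replicate 3.

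**Figure D2:**
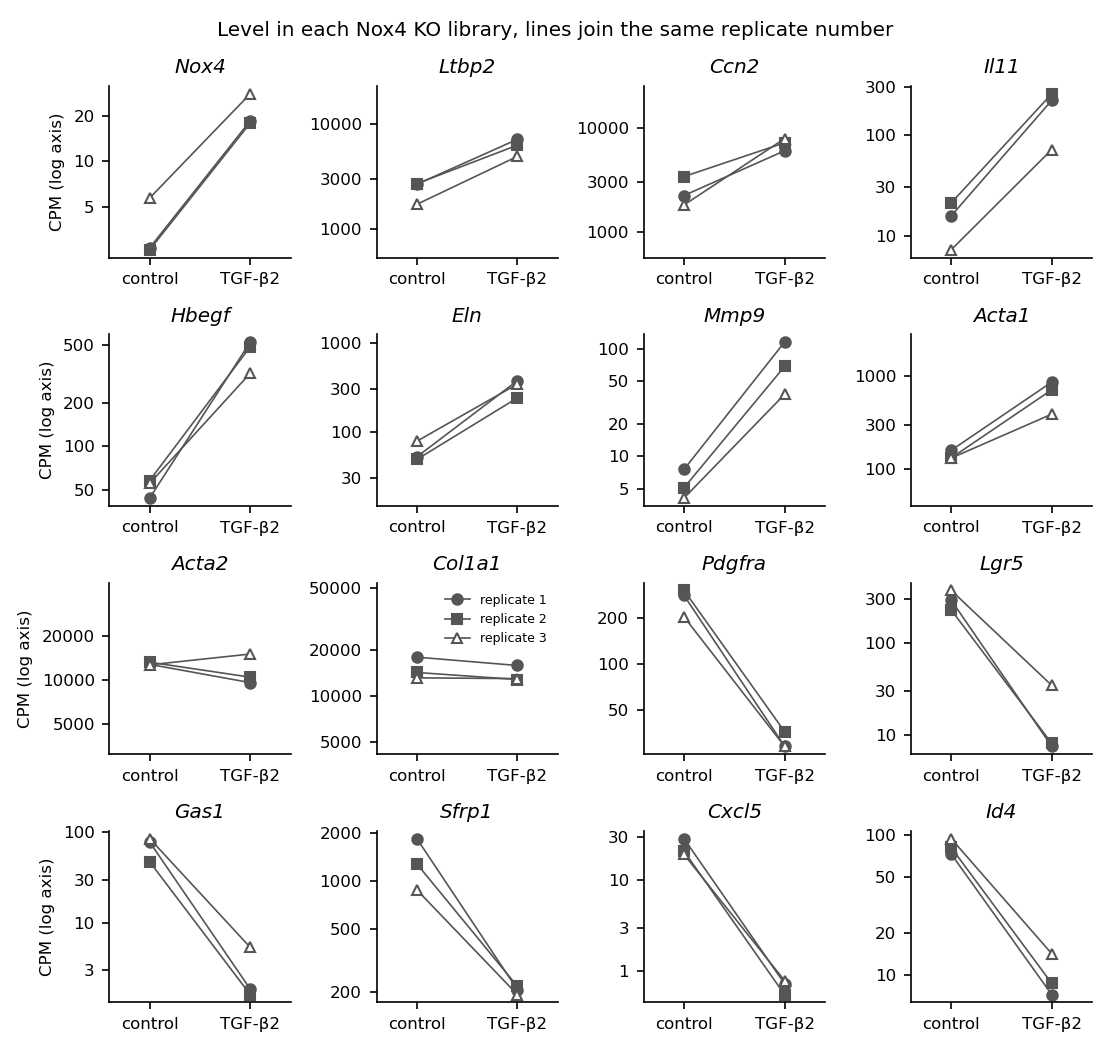
Level of 16 genes (vertical log axes, CPM) in each of the 6 Nox4 KO libraries, with lines joining the control and stimulated library of the same replicate number. Nox4, Ltbp2, Ccn2, Il11, Hbegf, Eln, Mmp9 and Acta1 are higher in each stimulated library than in any control, Pdgfra, Lgr5, Gas1, Sfrp1, Cxcl5 and Id4 lower, and Acta2 and Col1a1 overlap between the groups.

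The 3 pairs did not respond to the same extent. Among the 351 genes called higher the median log2 change within a pair was 1.47 in pair 1, 1.34 in pair 2 and 1.28 in pair 3, and pair 3 had the smallest change of the 3 in 197 genes, or 56.1%. Among the 863 called lower the medians were -1.34, -1.24 and -1.15, with pair 3 the smallest in 450 genes, or 52.1%. Over all tested genes pair 3 was the smallest in 45.9%. The differences were larger for single genes. The log2 change of Cdh6 within the pair was 4.61, 4.37 and 2.63, that of Pdgfb 3.52, 3.54 and 2.08 and that of Lgr5 -5.06, -4.62 and -3.29, in the order of the replicate numbers. Leaving out pair 3 gave 381 genes called higher and 925 lower, leaving out pair 1 328 and 803, and leaving out pair 2 329 and 793. At any fold, 1298 genes rose and 1866 fell without pair 2, and 1951 and 2477 without pair 1.

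**Figure D3:**
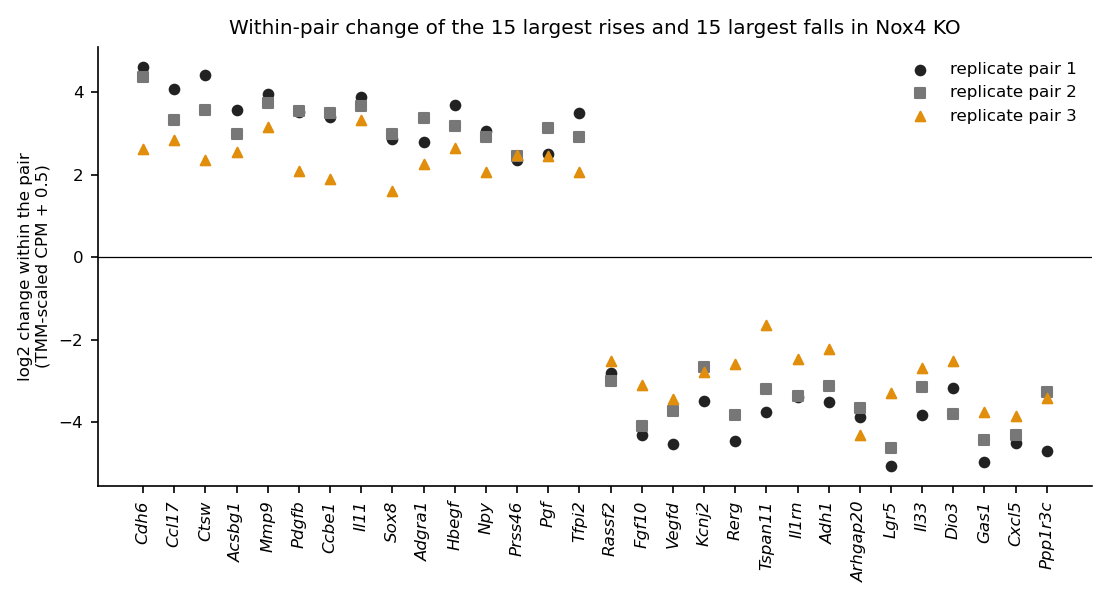
Change within each replicate pair (vertical axis, log2 of TMM-scaled CPM plus 0.5, stimulated minus control) for the 15 largest rises on the left and the 15 largest falls on the right, 1 marker a pair. All values keep the direction of their gene, and the triangles of pair 3 lie closest to 0 for most genes, as in Cdh6 and Lgr5.

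The most abundant of the called rises included matrix and adhesion genes. Ccn2, connective tissue growth factor, was at 2239.7, 3417 and 1813 CPM in control and 6072, 7252 and 7957 CPM after TGF-β2, and its change on the log2 scale was 1.65 (SE 0.21, adjusted p = 0.00214). Ltbp2, which encodes a microfibril-associated latent TGF-β binding protein family member, was at 2671, 2705 and 1719.5 CPM in control and 7163, 6303 and 4921 CPM after TGF-β2, and Itga5, the fibronectin receptor subunit, at 1552, 1642 and 942 CPM in control and 3831, 3830.4 and 2926 CPM after TGF-β2. Other abundant rises were in Inhba (1.44), Ptgs2 (1.92), Mmp14 (1.08), Loxl2 (1.21), Ccn4 (1.26), Iqgap1 (1.01), Pmepa1 (1.48) and Itgav (1.14), as log2 fold changes. The smallest adjusted p-values among the rises included those of Il11, Has2, Prag1, Nrp2, Plxna4, Wnt9a, Nrg1, Cspg4, Ncam1 and Tmeff1, all with an adjusted p-value of 0.000106.

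Among the abundant falls were genes of matrix and of the unstimulated fibroblast. Cemip, a hyaluronan-depolymerising factor, was at 1701, 1773 and 2093 CPM in control and 585, 576 and 697 CPM after TGF-β2, with a log2 fold change of -1.48 ± 0.053. Prelp, a small leucine-rich proteoglycan, was at 1254, 1582 and 1582 CPM in control and 250.3, 393 and 379 CPM after TGF-β2, with -2.03 ± 0.077. The Wnt antagonist gene Sfrp1 was at 1857, 1286 and 881 CPM in control and 206, 216 and 192 CPM after TGF-β2, with -2.54 ± 0.19. The controls of Sfrp1 spread over 2-fold from replicate to replicate while its stimulated libraries were nearly level. Col6a1 (-1.16), S100a4 (-1.35), Scpep1 (-1.52), Heg1 (-1.72), Il6st (-1.01), Svep1 (-1.40) and Slit2 (-1.18) also fell. Ccn5 was at 1015, 1179.6 and 1328 CPM in control and 329, 404 and 956 CPM after TGF-β2 and Plpp1 at 508, 507 and 579 CPM in control and 164, 218 and 393 CPM after TGF-β2. Both fell less in pair 3, and their adjusted p-values of 0.0119 and 0.00859 became 0.0763 and 0.0585 without replicate 2 and 0.110 and 0.0588 without the replicate block. The falls with the smallest adjusted p-values, also of 0.000106, included Cxcl5, Adamts9, Thbd, Plpp3, Rcan2, Xdh, Heg1, Prrx1, Serpinb1a, St3gal1 and Pdgfra. Prrx1, a homeobox gene of mesenchyme, was at 402, 417 and 448 CPM in control and 142, 151 and 153 CPM after TGF-β2, and Heg1, which encodes a mucin-like membrane protein, at 616, 605 and 662 CPM in control and 179, 161 and 193 CPM after TGF-β2.

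The groups of genes that follow were written by hand as 44 lists of known function, and the share of their tested members called is to be read against the 2.94% called higher and 7.23% called lower among all tested genes.

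**Figure D4:**
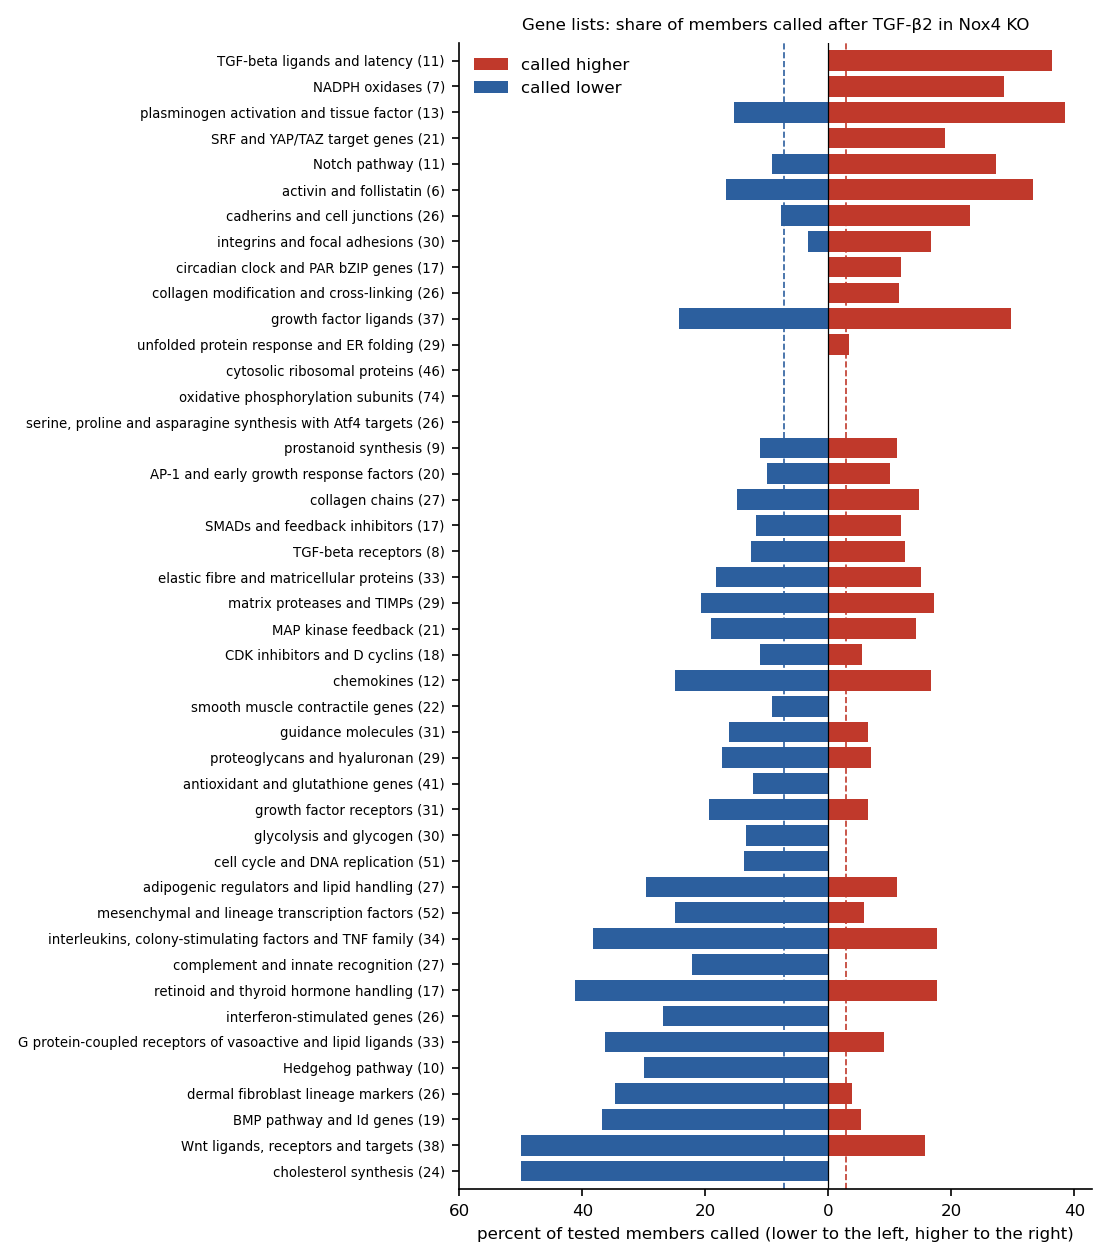
Share of the tested members of each of 44 gene lists (number tested in brackets) called higher (to the right) or lower (to the left), in percent, with dashed lines at the shares among all 11935 tested genes. The list of cholesterol synthesis had 12 of 24 members called lower and that of the Wnt pathway 19 of 38, whereas no member was called in the lists of ribosomal proteins, oxidative phosphorylation and amino acid synthesis.

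Genes of the TGF-β pathway changed at several levels. Of 11 tested ligand and latency genes 4 were called higher and none lower. Tgfb1 was at 50.2, 55.5 and 23.7 CPM in control and 169, 163 and 64.0 CPM after TGF-β2 (log2 fold change 1.68 ± 0.071), whereas Tgfb2 itself did not pass (0.22, adjusted p = 0.522). The pairs of Tgfb2 did not share a direction, and without replicate 3 its log2 fold change was 0.61 (adjusted p = 0.000192). The latent binding protein genes Ltbp2 (1.49) and Ltbp4 (1.04) and Itgav (1.14), whose integrin frees latent TGF-β, were the other 3 called. Among 8 receptors 1 was called higher, Acvr1 (1.12), and 1 lower, Tgfbr3, the coreceptor betaglycan that presents TGF-β2. Tgfbr3 was at 331, 239 and 168 CPM in control and 37.4, 32.7 and 27.3 CPM after TGF-β2, with -2.78 (SE 0.11, adjusted p = 0.000125). The signalling receptor genes moved less, with 0.50 ± 0.17 for Tgfbr1 and -0.53 ± 0.062 for Tgfbr2. Their adjusted p-values were 0.0483 and 0.00176, and 0.0749 and 0.0943 without the replicate block.

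Several feedback inhibitors of the pathway rose while SMAD3 transcript fell. Among 17 tested SMAD and inhibitor genes Skil, which encodes the corepressor SnoN, was at 67.5, 77.7 and 67.3 CPM in control and 148, 162 and 154 CPM after TGF-β2 (1.23 ± 0.049) and Pmepa1, which sequesters SMADs, at 359, 378 and 253 CPM in control and 837, 845 and 850 CPM after TGF-β2 (1.48 ± 0.13), and both were called higher. The inhibitory Smad7 rose by 0.83 ± 0.052 and the ubiquitin ligase genes Smurf1 and Smurf2 by 0.75 ± 0.052 and 0.82 ± 0.079, without reaching 2-fold. Smad3 fell by 0.73 ± 0.11 on the log2 scale and was at 95.7, 95.7 and 108 CPM in control and 67.1, 52.0 and 50.5 CPM after TGF-β2. Smad6 (-1.47) and Smad9 (-1.53), the 2 genes called lower, belong to the BMP branch as inhibitor and signal transducer.

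More genes of the BMP branch fell than rose. Of 19 tested genes 7 were called lower and 1 higher, and the median log2 fold change was -0.79. The Id genes, direct BMP targets that encode inhibitors of bHLH factors, all fell. Id4 was at 73.5, 81.7 and 94.6 CPM in control and 7.27, 8.74 and 14.3 CPM after TGF-β2 (-2.98 ± 0.13), Id2 at 41.9, 38.9 and 64.7 CPM in control and 9.04, 9.93 and 18.4 CPM after TGF-β2 (-1.89 ± 0.089), Id1 changed by -0.94 ± 0.05 and Id3 by -0.89 ± 0.087. Tmem100, a BMP target gene of low level, was at 1.72, 1.15 and 3.60 CPM in control and had 7 reads in all 3 stimulated libraries. Its log2 fold change of -5.12 was -5.84 without replicate 1 and -4.47 without replicate 3. The antagonist gene Nog (-1.82) and the ligand genes Bmp6 (-1.48) and Gdf10 (-3.15) were also called lower, and without the replicate block the adjusted p-values of Nog and Bmp6 were 0.274 and 0.178. The type II receptor gene Bmpr2 rose by 1.09 ± 0.15. Of the activin genes, Inhba was at 532, 756 and 857 CPM in control and 1973, 2253 and 1232 CPM after TGF-β2 and Inhbb at 66.1, 97.5 and 63.9 CPM in control and 22.3, 23.9 and 9.01 CPM after TGF-β2, so that the former rose by 1.44 ± 0.26 and the latter fell by 2.01 ± 0.23 on the log2 scale. For Inhba an adjusted p-value of 0.00728 became 0.0539 without replicate 2. The activin-binding follistatins diverged as well, with -0.66 ± 0.09 for Fst and 1.63 ± 0.075 for Fstl3. Without the block the adjusted p-value of Fst was 0.194.

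None of the 22 tested genes of the smooth muscle contractile apparatus, by which myofibroblasts are known, was called higher. As 2.94% of all tested genes were called higher, a list of this size would hold few such genes or none. The share called lower was 9.09%, against 7.23% of all tested genes. Acta2 was among the most abundant genes in control, at 12772, 13205 and 12675 CPM, and was at 9588, 10446 and 15012 CPM after TGF-β2. Its log2 fold change was -0.067 (SE 0.16, adjusted p = 0.743). The groups overlapped, and the pairs did not share a direction, with a lower stimulated library in pairs 1 and 2 and a higher one in pair 3. Without replicate 3 the log2 fold change was -0.27 (adjusted p = 0.0095), and without replicates 1 or 2 it was 0.059 and 0.022. Of the 22 tested members of the list none was called higher and 2 were called lower, namely Itga8, the α8 integrin, at 274, 237 and 251 CPM in control and 32.1, 47.7 and 105 CPM after TGF-β2, and Mylk, myosin light chain kinase, at 335, 248 and 271 CPM in control and 118, 106 and 158 CPM after TGF-β2. Tagln (0.35 ± 0.097) and Tpm1 (0.43 ± 0.072) rose, Myh11 (-0.71 ± 0.14) fell, and Cnn1 (-0.018, adjusted p = 0.91) did not pass. The adjusted p-values of Tagln, Tpm1 and Myh11 were 0.0951, 0.0511 and 0.0611 without replicate 2, those of Tagln and Myh11 were 0.0883 and 0.107 without the block, that of Tagln was 0.0696 by library size alone, and that of Cnn1 was 0.00261 without replicate 3, with a log2 fold change of -0.20. A different actin gene was called. Acta1, the skeletal muscle α-actin, was at 158, 130.4 and 130.2 CPM in control and 869, 716 and 389.7 CPM after TGF-β2 and changed by 2.27 ± 0.19 on the log2 scale (adjusted p = 0.000636), and it made up nearly all of the summed level of 9 skeletal muscle markers, in which Myod1, Myog and Pax7 had at most 2 reads in a library.

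Targets of the actin-responsive factors SRF and YAP/TAZ moved in 1 direction where they were called, with 4 of 21 higher and none lower. These were Ccn2, Nuak2 (1.82), Csrp2 (1.35) and Ankrd1 (1.06). Srf itself rose by 0.74 ± 0.041 and Tead4, a partner of YAP, by 0.92 ± 0.087, and Csrp1 and Fhl1 fell by 0.19 ± 0.064 and 0.46 ± 0.048 on the log2 scale. Neither fall passed without the replicate block (adjusted p = 0.241 and 0.0507).

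Collagen genes changed in both directions, and the main fibrillar chains did not rise. Col1a1 was at 17870, 14212 and 13117 CPM in control and 15776, 12790 and 12968 CPM after TGF-β2 (-0.013, adjusted p = 0.925) and Col1a2 had a log2 fold change of -0.025 (adjusted p = 0.82). Col3a1 fell by 0.90 ± 0.074 on the log2 scale and was at 5514, 4427 and 4198 CPM in control and 2626, 2410.5 and 2009 CPM after TGF-β2. Of 27 tested chains 4 were called higher, Col5a3 (2.28), Col7a1 (2.24), Col11a1 (1.74) and Col15a1 (1.03), and 4 lower. Col7a1, the anchoring fibril collagen, was at 64.5, 73.2 and 32.6 CPM in control and 403, 311 and 103 CPM after TGF-β2, and Col11a1, a minor fibrillar chain, at 112, 59.2 and 78.8 CPM in control and 306, 181 and 285 CPM after TGF-β2. The adjusted p-value of Col5a3 was 0.0123 and became 0.0802 without replicate 2, and its log2 fold change was 2.97 without replicate 3. The chains called lower were Col24a1 (-2.92), Col14a1 (-1.24), Col6a1 and Col28a1 (-1.11), and the adjusted p-values of Col14a1 and Col15a1 were 0.21 and 0.195 without the replicate block. Col6a1 was at 1752, 1434 and 1034 CPM in control and 849, 574 and 389 CPM after TGF-β2 and its partner Col6a2 fell by 0.98 ± 0.065 on the log2 scale, although without the block its adjusted p-value was 0.116.

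Enzymes that modify and cross-link collagen rose more often than they fell. Of 26 tested genes 15 rose at any fold and 6 fell, 3 were called higher, Loxl2, Pcolce2 (1.27) and Tll1 (2.30), and none lower. Lox, lysyl oxidase, was at 3483, 3750.1 and 4070.3 CPM in control and 5533, 6328 and 6331 CPM after TGF-β2 (0.79 ± 0.074), Loxl2 at 609, 764 and 521 CPM in control and 1296, 1523 and 1232 CPM after TGF-β2 (1.21 ± 0.067) and Loxl3 at 544, 682 and 471 CPM in control and 1053, 1078 and 927 CPM after TGF-β2 (0.97 ± 0.079). The lysyl hydroxylase genes Plod1, Plod2 and Plod3 rose by 0.35 ± 0.041, 0.70 ± 0.041 and 0.33 ± 0.052. Tll1 encodes a procollagen C-proteinase, and Adamts2, which removes the N-propeptide, fell by 0.98 ± 0.053 on the log2 scale. Without the replicate block the adjusted p-values of Plod1, Plod2, Plod3 and Adamts2 were 0.161, 0.24, 0.0815 and 0.065.

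Of 33 elastic fibre and matricellular genes 5 were called higher and 6 lower. Eln, which encodes tropoelastin, was at 52.0, 48.7 and 78.1 CPM in control and 374, 239.7 and 343 CPM after TGF-β2 and changed by 2.53 ± 0.14 on the log2 scale (adjusted p = 0.000256). Mfap4 (1.13), Ccn4 and Cthrc1 (1.27) were also called higher. Tnc, tenascin C, an abundant gene, rose by 0.98 ± 0.13, just under 2-fold, and was at 6359, 5331 and 2433 CPM in control and 13704, 10451 and 3597 CPM after TGF-β2. Fn1, fibronectin, was at 9766 to 10754 CPM in control and 10650 to 12447 CPM after TGF-β2 with a log2 fold change of 0.26 (adjusted p = 0.06), Thbs1 at 27296 to 28229 CPM in control and 30690 to 31882 CPM after TGF-β2 with 0.29 (adjusted p = 0.102). Neither passed by edgeR, although both did by DESeq2 (adjusted p = 0.000503 and 9.55e-05). Ccn3 was at 98.7, 59.2 and 38.7 CPM in control and 8.62, 11.7 and 7.94 CPM after TGF-β2, so that within the CCN family Ccn2 and Ccn4 were called higher and Ccn3 and Ccn5 lower. The fibrillin gene Fbn2 was called lower (-2.60). Without the replicate block the adjusted p-values of Tnc and Fbn2 were 0.197 and 0.0676.

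Among 29 proteoglycan and hyaluronan genes Has2, hyaluronan synthase, was called higher, at 60.6, 59.3 and 38.6 CPM in control and 259, 237 and 155 CPM after TGF-β2, and Cemip lower. Chsy1, a chondroitin synthase gene, rose by 1.06 ± 0.042. Prelp, Podn (-1.28), Sdc4 (-1.42) and Hs3st1 (-3.58) were called lower, and decorin fell (-0.37 ± 0.051 for Dcn). The adjusted p-value of Podn, 0.00706, became 0.0524 without replicate 2.

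Protease genes changed in both directions. Of 29 tested genes 5 were called higher, and 6 lower. Of the aggrecan-cleaving and related members of the ADAMTS family, 4 were called lower, with Adamts1 at 268, 294 and 578 CPM in control and 33.1, 46.1 and 93.3 CPM after TGF-β2 (-2.67 ± 0.088), Adamts5 at 212, 284 and 744 CPM in control and 13.2, 24.6 and 107 CPM after TGF-β2 (-3.32 ± 0.23), Adamts9 at 38.0, 41.4 and 69.0 CPM in control and 3.24, 3.36 and 5.60 CPM after TGF-β2 (-3.50 ± 0.064) and Adamts15 at 6.79, 2.35 and 3.03 CPM against 0.0932, 0.114 and 0.0237 CPM (-5.54 ± 0.33, and -6.22 without replicate 2). In contrast Adamts12 (1.13) and Adamts6 (0.90) rose. Mmp9 was at 7.53, 5.08 and 4.07 CPM in control and 116, 68.7 and 37.7 CPM after TGF-β2 and Mmp14, the membrane-bound collagenase, at 981, 1004 and 693 CPM in control and 1749, 1736 and 1731 CPM after TGF-β2, while Mmp2 had 0.26 (adjusted p = 0.0569, and 0.0266 by DESeq2). Timp1 rose by 0.91 ± 0.11 and Timp2 fell by 0.77 ± 0.055 on the log2 scale. Of the 13 genes of plasminogen activation and coagulation 5 were called higher, among them Serpinb2 (2.71), Tfpi2, Plaur (1.43) and F2rl1 (1.42), and 2 lower. The latter were Plau, the urokinase gene, at 123, 138 and 118 CPM in control and 35.6, 30.5 and 28.0 CPM after TGF-β2, and Thbd, thrombomodulin, at 140.1, 149 and 111 CPM in control and 19.7, 23.1 and 18.0 CPM after TGF-β2. Serpinb2 and Tfpi2 encode protease inhibitors and Plau a protease.

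Adhesion genes were called higher more often than lower. Among 30 integrin and focal adhesion genes 5 were called higher, Itga5, Itgav, Itga2 (1.95), Itgb3 (1.67) and Ilk (1.04), and 1 lower, Itga8. Itga11, a collagen receptor subunit gene, rose by 0.85 ± 0.13. The adjusted p-values of Itgb3 and Itga11, 0.00381 and 0.00373, became 0.11 and 0.233 without the replicate block. Of 26 cadherin and junction genes 6 were called higher, with Cdh11, a mesenchymal cadherin, at 361, 314 and 368 CPM in control and 785, 719.7 and 545 CPM after TGF-β2, Ncam1 at 287, 248 and 189 CPM in control and 841, 663 and 528 CPM after TGF-β2 and the connexin gene Gjb2 at 165, 126 and 4.98 CPM in control and 428, 348 and 57.8 CPM after TGF-β2. Gjb2 spread widely between replicates (adjusted p = 0.00973, and 0.344 without the block). The leukocyte ligands Vcam1 (-1.69 ± 0.11) and Icam1 (-1.28 ± 0.064) were the 2 genes called lower. Guidance genes gave 2 called higher and 5 lower of 31. Sema7a was at 14.7, 25.8 and 6.88 CPM in control and 142, 159.7 and 26.9 CPM after TGF-β2 and its level in each stimulated library was over that in any control, whereas Slit2 was at 429, 428 and 631 CPM in control and 196, 176 and 233 CPM after TGF-β2.

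Growth factor ligand genes were called in both directions. Of 37 growth factor ligand genes 11 were called higher and 9 lower. The former included Pdgfb, at 1.59, 1.56 and 0.66 CPM in control and 22.0, 22.1 and 4.17 CPM after TGF-β2, Pdgfc (2.25 ± 0.25), Nrg1 (1.88 ± 0.058), Vegfa (1.19 ± 0.23), Vegfc (1.19 ± 0.12) and Pgf (3.12 ± 0.15). The latter included Vegfd, at 267, 185 and 372 CPM in control and 10.3, 12.7 and 31.6 CPM after TGF-β2, and the epithelial growth factor genes Fgf10, at 82.0, 50.6 and 106 CPM in control and 3.40, 2.35 and 11.1 CPM after TGF-β2, Fgf7, at 214, 227 and 140.5 CPM in control and 49.7, 64.0 and 35.9 CPM after TGF-β2, and Hgf (-1.32 ± 0.15). The adjusted p-value of Vegfa, 0.00874, became 0.0614 without replicate 2, and that of Hgf, 0.00157, 0.0733 without the block. The VEGF family thus held members that rose and members that fell, and Vegfb (-1.12) was called lower with Vegfd. Among 31 receptor genes Pdgfra, the PDGF receptor α, fell from 282, 304 and 204 CPM to 29.2, 36.4 and 29.1 CPM, with -2.95 (SE 0.097, adjusted p = 0.000106). Nrp2 rose by 2.08 ± 0.054, and Fgfr2, the receptor for FGF7 and FGF10, fell by 1.32 ± 0.14 on the log2 scale.

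Cytokine genes were called lower more often than higher, as were all tested genes, with 863 called lower and 351 higher. Of 34 interleukin, colony-stimulating factor and TNF family genes 13 were called lower and 6 higher. Those called higher were Il11, Lif, Tnfrsf11b, Cd40, Csf3 and Tnfsf18. Lif, another ligand of gp130-containing receptors, was at 27.8, 42.0 and 20.3 CPM in control and 219, 237 and 90.7 CPM after TGF-β2 and Tnfrsf11b, which encodes osteoprotegerin, at 29.6, 46.3 and 33.9 CPM in control and 161, 218 and 258 CPM after TGF-β2. Il6st, which encodes gp130, the receptor chain that IL-11 and LIF share, was called lower and was at 687, 559 and 476 CPM in control and 257, 269 and 259.9 CPM after TGF-β2. The receptor genes Lifr (-1.01 ± 0.11), the second chain for LIF, and Osmr (-1.09 ± 0.069), a chain for oncostatin M, were also called lower. The alarmin genes Il33, at 17.1, 7.62 and 4.21 CPM in control and 0.676, 0.388 and 0.19 CPM after TGF-β2, and Tslp (-1.74 ± 0.20), and the interleukin-1 genes Il1r1 (-1.66 ± 0.075) and Il1rn, at 17.6, 7.26 and 3.22 CPM in control and 1.12, 0.228 and 0.142 CPM after TGF-β2, were called lower. Without the block Tslp had an adjusted p-value of 0.0993. Il6 had 0.42 (adjusted p = 0.173). Of 12 chemokine genes Cx3cl1, at 42.1, 37.0 and 12.7 CPM in control and 208, 138 and 79.1 CPM after TGF-β2, and Ccl17 were called higher and Cxcl1 (-3.56), Cxcl5 and Cxcl14 (-1.36) lower. The adjusted p-value of Cxcl14, 0.014, became 0.0785 without replicate 2. Cxcl12 fell by 0.86 ± 0.15 on the log2 scale and Ccl2 by 0.80 ± 0.12, with adjusted p-values of 0.0792 and 0.143 without the block.

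Genes of innate immunity fell more often than they rose. No member of the lists of interferon-stimulated genes (26 tested) or of complement and innate recognition (27 tested) was called higher, 7 and 6 were called lower, 14 and 21 fell at any fold, 1 and 1 rose, and the median log2 fold changes were -0.71 and -0.61. Ptx3, a soluble pattern recognition protein, was at 182, 215 and 229 CPM in control and 7.83, 11.8 and 28.5 CPM after TGF-β2, and Ifit2, an antiviral gene, at 12.0, 10.9 and 14.0 CPM in control and 2.49, 2.26 and 2.99 CPM after TGF-β2. C3, the central complement component, fell by 0.64 ± 0.057 on the log2 scale and Tlr4 by 0.72 ± 0.18. Without the block their adjusted p-values were 0.167 and 0.0536, and that of Tlr4 was 0.0573 without replicate 2. Ifit3, the largest fall among the interferon genes (-2.55, adjusted p = 0.000706), had an adjusted p-value of 0.0572 with all 12 libraries in the fit. The macrophage and leukocyte markers given above moved with these genes. Of their 14 markers 12 were tested, 1 was called lower, 5 fell at any fold and 1, Ptprc, rose, and their part in the result was not tested. Without replicate 1, which held most of these markers, 6 interferon genes and 4 complement genes were called lower. Among the defining markers, Lyz2 was at 91.8, 30.3 and 19.3 CPM in control and 67.2, 23.4 and 12.4 CPM after TGF-β2 and Csf1r at 21.1, 17.6 and 7.45 CPM in control and 12.5, 6.78 and 4.79 CPM after TGF-β2, and Cd3e had 3 reads in 1 library and none in the other 5.

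The Wnt pathway held the largest share of called genes among the lists with over 10 members. Of 38 tested genes 19 were called lower and 6 higher. The called rises included 5 ligand genes, Wnt5a at 79.6, 88.0 and 117 CPM in control and 143, 169.6 and 245 CPM after TGF-β2, Wnt5b (1.76), Wnt9a at 9.62, 8.32 and 8.94 CPM in control and 75.2, 54.6 and 55.6 CPM after TGF-β2, Wnt10b (3.70) and Wnt11 at 2.90, 4.19 and 3.19 CPM in control and 30.5, 36.8 and 8.82 CPM after TGF-β2, and the transcription factor gene Lef1 (3.09). The falls held secreted antagonists of Wnt, Sfrp1, Sfrp2 (-3.19), Sfrp4 (-1.70), Frzb (-2.48), Dkk2 at 126, 116 and 122 CPM in control and 30.9, 24.6 and 38.2 CPM after TGF-β2 and Wif1 (-1.28). They also held receptor genes, Fzd1 (-1.40), Fzd4 (-1.30) and Lgr5, the R-spondin genes Rspo2 (-2.61) and Rspo3 (-2.47), and the feedback targets of β-catenin Axin2 (-1.36), Nkd1 at 28.2, 24.9 and 47.9 CPM in control and 7.11, 5.39 and 12.4 CPM after TGF-β2, Nkd2 (-1.55), Notum (-3.19) and Apcdd1 (-1.55). Without the block the adjusted p-values of Sfrp4, Wif1 and Rspo2 were 0.153, 0.0753 and 0.0751, that of Wif1 was 0.144 without replicate 2, and the log2 fold change of Rspo3 was -1.85 without replicate 3. Lef1 is itself a target of the pathway and rose, from 0.496, 0.503 and 0.633 CPM to 5.78, 5.18 and 2.18 CPM.

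Of 10 Hedgehog genes 3 were called lower and none higher, namely Gas1, the transcription factor gene Gli2, at 30.1, 21.6 and 27.6 CPM in control and 5.31, 4.84 and 11.7 CPM after TGF-β2, and Hhip (-1.70). The Notch list gave 3 called higher of 11. The ligand gene Jag1 was at 26.4, 38.3 and 96.1 CPM in control and 291, 283 and 225 CPM after TGF-β2, Notch4 at 3.48, 3.91 and 2.50 CPM in control and 19.5, 20.9 and 17.8 CPM after TGF-β2 and the target Heyl at 0.131, 0.12 and 0.22 CPM in control and 3.10, 1.76 and 1.07 CPM after TGF-β2, while Notch3 fell by 1.40 ± 0.082 on the log2 scale. Without replicate 3 the log2 fold changes of Jag1 and Heyl, 2.62 and 3.73, were 3.26 and 4.33.

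Transcription factor genes of mesenchyme mostly fell where they were called, 13 lower against 3 higher of 52. Prrx1 and Prrx2 (-1.28), Tbx5 (-1.17), Klf4 at 106, 125 and 185 CPM in control and 30.5, 47.5 and 75.8 CPM after TGF-β2 and Snai2 (-1.03) were called lower, and Twist1 fell by 0.98 ± 0.053 on the log2 scale. Runx1 was at 57.1, 64.2 and 30.9 CPM in control and 137, 129 and 98.8 CPM after TGF-β2 and was called higher. Snai1 had 0.16 (adjusted p = 0.258). The lineage markers of dermal fibroblasts moved in the same direction, with 9 of 26 called lower, 21 lower at any fold and only Lrig1 (1.02) higher. Cd34 was at 25.1, 20.9 and 36.0 CPM in control and 7.92, 11.4 and 10.1 CPM after TGF-β2, Ly6a, which encodes Sca-1, at 341, 315 and 481 CPM in control and 99.8, 127 and 169 CPM after TGF-β2, and Thy1 fell by 0.66 ± 0.11 on the log2 scale (adjusted p = 0.0655 without the block).

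Of 20 AP-1 and early growth response genes Egr2 was at 9.38, 16.6 and 3.19 CPM in control and 63.5, 60.2 and 17.9 CPM after TGF-β2 (2.44 ± 0.18), Fosb rose (1.61 ± 0.20) and Fos fell (-1.91 ± 0.10). Junb (0.68 ± 0.069), Jun (0.54 ± 0.064) and Myc (0.75 ± 0.058) rose by less than 2-fold, and the adjusted p-values of Junb and Jun were 0.0634 and 0.125 without the block. Inhibitors of MAP kinase signalling changed in both directions, with the phosphatase genes Dusp4 at 33.5, 49.1 and 50.5 CPM in control and 196, 205 and 104 CPM after TGF-β2 and Dusp5 at 14.7, 21.5 and 11.9 CPM in control and 68.2, 77.4 and 34.7 CPM after TGF-β2 called higher and Dusp1 (-1.06), Spry2 (-1.42), Rgs2 (-1.87) and Rasl11a (-3.71) lower. In the clock list Bhlhe40, a transcriptional repressor, was at 69.2, 71.8 and 45.1 CPM in control and 241, 227 and 128 CPM after TGF-β2 (1.76 ± 0.067), and none of the other clock genes except its relative Bhlhe41 was called. Bhlhe41 had an adjusted p-value of 0.0365, which became 0.158 without replicate 2 and 0.0593 without the replicate block, and its log2 fold change of 1.52 was 2.27 without replicate 3.

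Promoter sequences show motifs of the factors just named in some of these genes. RefSeq promoters (GRCm38.p6, 250 bases before to 50 after an annotated start) were matched by symbol to 9448 tested genes, 238 of them called higher and 643 called lower. The AP-1 site TGANTCA was present in 13.4% of the promoters of genes called higher, 8.24% of those called lower and 6.06% of all tested. The SRF site, CC and GG flanking 6 A or T, was present in 4.20%, 0.467% and 1.60%, the 5-base SMAD motif CAGAC in 63.9%, 53.5% and 52.4%, the TEAD site GGAATG in 18.5%, 16.8% and 14.4%, and the E-box CACGTG in 17.6%, 10.4% and 12.0%. The SMAD palindrome of GTCT and AGAC was rare, with 1, 4 and 29 genes. Both strands were searched, the motifs can overlap, and a gene counts once if any of its windows holds the motif. Genes called higher, called lower and all tested had 1.35, 1.32 and 1.29 windows each. The SRF site was held by 10, 3 and 151 genes. With only the first window of each gene its shares were 2.1%, 0.311% and 1.32%. Those of the AP-1 site were then 9.66%, 6.07% and 4.67%. These are shares of letters in windows and were not tested. The following 6 promoters, chosen after the values were seen, are shown because they hold a rare motif in a gene with a large change, and the capitals mark the AP-1 site in the cytokine genes Il11 and Lif and in Tfpi2, the SRF site in Acta1 and Egr2, and the SMAD palindrome in Smad6, which fell. Each is written on the strand of its gene.

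Il11 (chr7:4778092-4778391, - strand): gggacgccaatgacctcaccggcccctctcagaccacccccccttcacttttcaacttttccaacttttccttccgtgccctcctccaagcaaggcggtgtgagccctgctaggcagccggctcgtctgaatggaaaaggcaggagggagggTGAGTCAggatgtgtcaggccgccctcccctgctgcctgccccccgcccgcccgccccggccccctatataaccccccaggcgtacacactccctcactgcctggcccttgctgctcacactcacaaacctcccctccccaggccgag
Lif (chr11:4257318-4257617, + strand): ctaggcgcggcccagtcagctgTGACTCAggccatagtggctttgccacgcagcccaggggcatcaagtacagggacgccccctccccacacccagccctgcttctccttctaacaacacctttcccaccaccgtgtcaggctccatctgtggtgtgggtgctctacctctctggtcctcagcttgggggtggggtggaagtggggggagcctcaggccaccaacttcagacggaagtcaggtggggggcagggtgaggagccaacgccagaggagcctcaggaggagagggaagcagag
Tfpi2 (chr6:3968326-3968625, - strand): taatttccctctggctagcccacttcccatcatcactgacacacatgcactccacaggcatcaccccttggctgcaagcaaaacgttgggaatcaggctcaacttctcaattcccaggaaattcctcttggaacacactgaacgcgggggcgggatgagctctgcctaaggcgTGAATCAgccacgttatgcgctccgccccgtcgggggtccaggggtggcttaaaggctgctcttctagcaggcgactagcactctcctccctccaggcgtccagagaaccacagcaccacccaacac
Acta1 (chr8:123894726-123895025, - strand): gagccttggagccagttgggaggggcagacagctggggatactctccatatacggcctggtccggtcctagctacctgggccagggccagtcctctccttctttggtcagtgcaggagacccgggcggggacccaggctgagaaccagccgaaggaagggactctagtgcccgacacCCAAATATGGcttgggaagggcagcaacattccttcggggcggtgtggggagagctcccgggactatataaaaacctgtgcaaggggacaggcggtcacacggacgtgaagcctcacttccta
Egr2 (chr10:67537316-67537615, + strand): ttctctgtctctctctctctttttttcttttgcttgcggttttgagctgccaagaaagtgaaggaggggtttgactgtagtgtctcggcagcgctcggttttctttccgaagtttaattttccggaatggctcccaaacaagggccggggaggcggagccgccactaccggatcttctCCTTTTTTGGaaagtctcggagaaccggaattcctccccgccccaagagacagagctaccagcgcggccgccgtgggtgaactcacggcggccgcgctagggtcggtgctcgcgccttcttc
Smad6 (chr9:64022010-64022309, - strand): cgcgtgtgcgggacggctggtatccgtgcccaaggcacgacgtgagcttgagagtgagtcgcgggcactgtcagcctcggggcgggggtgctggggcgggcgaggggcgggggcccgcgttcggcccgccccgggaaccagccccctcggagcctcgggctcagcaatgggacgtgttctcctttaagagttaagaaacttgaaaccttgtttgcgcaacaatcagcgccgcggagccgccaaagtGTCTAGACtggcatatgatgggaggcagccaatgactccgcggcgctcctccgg

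In Il11 the site starts 98 bases before the annotated start, in Lif 228, in Tfpi2 77, in Acta1 73, in Egr2 72 and in Smad6 4 bases before it. Il11, Lif and Tfpi2 rose by 3.68, 2.65 and 2.93 on the log2 scale, Acta1 and Egr2 by 2.27 and 2.44, and Smad6 was at 56.7, 74.3 and 109 CPM in control and 19.0, 19.9 and 46.0 CPM after TGF-β2.

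Receptors for vasoactive and lipid ligands were called lower more often than higher. Of 33 tested genes 12 were called lower and 3 higher, with a median log2 fold change of -0.72. Adm, which encodes the peptide adrenomedullin, was at 71.8, 102 and 79.9 CPM in control and 5.38, 14.7 and 9.77 CPM after TGF-β2, the adrenoceptor gene Adra1d at 42.5, 41.3 and 73.4 CPM in control and 6.36, 6.12 and 16.1 CPM after TGF-β2, the sphingosine 1-phosphate receptor gene S1pr3 at 185, 193 and 65.2 CPM in control and 57.7, 60.0 and 17.6 CPM after TGF-β2, and the prostanoid receptor genes Ptger4 (-1.54), Ptgfr (-3.28) and Ptgir (-2.73) fell. S1pr3 did not pass without the block (adjusted p = 0.0874). The serotonin receptor gene Htr1b went the other way and was at 38.4, 41.1 and 52.5 CPM in control and 179, 173 and 195 CPM after TGF-β2. Prostaglandin synthesis was split between Ptgs2, cyclooxygenase-2, at 532, 482 and 487 CPM in control and 1872, 2177 and 1346 CPM after TGF-β2, and Ptges, the inducible prostaglandin E synthase, which changed by -1.36 ± 0.052 on the log2 scale.

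Retinoid and thyroid hormone genes changed in both directions, with 3 called higher and 7 lower of 17. The retinaldehyde dehydrogenase gene Aldh1a3 was at 28.5, 77.9 and 30.5 CPM in control and 353, 434 and 84.7 CPM after TGF-β2 while its relative Aldh1a1 was at 41.5, 46.4 and 96.4 CPM in control and 6.18, 10.2 and 38.9 CPM after TGF-β2. Cyp26b1, which breaks down retinoic acid, was at 44.3, 78.8 and 74.7 CPM in control and 4.17, 10.2 and 11.9 CPM after TGF-β2. The deiodinase genes Dio2 (-2.87) and Dio3 and the receptor genes Thra (-1.27) and Thrb (-2.03) were called lower. Without the block Aldh1a1 had an adjusted p-value of 0.127, and the log2 fold change of Dio2 was -3.54 without replicate 3.

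Genes of cholesterol synthesis fell where they passed the test. Of 24 tested genes 12 were called lower, 21 were lower at any fold and none was higher, and the median log2 fold change was -1.01. Hmgcs1, the HMG-CoA synthase, was at 269, 221 and 198 CPM in control and 109, 92.1 and 81.2 CPM after TGF-β2, the squalene epoxidase gene Sqle at 207, 183 and 174 CPM in control and 77.3, 74.9 and 78.4 CPM after TGF-β2 and Lss, lanosterol synthase, at 129, 91.8 and 82.8 CPM in control and 43.2, 34.6 and 35.2 CPM after TGF-β2. Srebf2, which encodes the regulator SREBP-2, fell by 0.59 ± 0.047 on the log2 scale. In the list of adipogenic and lipid genes Cebpa (-1.54), Pparg (-1.18), Lpl (-1.34) and Scd1 (-1.14) were called lower and the lipid droplet gene Plin2, at 64.6, 62.8 and 51.4 CPM in control and 245, 226 and 161 CPM after TGF-β2, higher. Without the block the adjusted p-value of Pparg was 0.0561.

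Few genes of energy metabolism were called. Among 74 nuclear-encoded subunits of oxidative phosphorylation none was called, 6 rose and 17 fell, with a median of -0.076. Over all tested genes 25.5% rose and 28.7% fell. With upper-quartile scaling 2 subunits rose and 27 fell, and by library size alone 2 and 36. The medians were then -0.14 and -0.18. Among 30 glycolysis and glycogen genes 4 were called lower (13.3%, against 7.23% of all tested genes), with Ppp1r3c the largest. In other settings of the fit 1 to 4 were called lower. At any fold 11 fell and 4 rose, among them Hk2, hexokinase 2 (0.89 ± 0.06). No gene of serine, proline and asparagine synthesis was called, although Aldh1l2 (0.89 ± 0.14) and Pycr1 (0.52 ± 0.052) rose. The median of 46 ribosomal protein genes was 0.013 and turned to -0.054 with upper-quartile scaling and -0.090 by library size alone. Many of these genes have near-identical copies elsewhere in the genome, and as reads with several locations were discarded their levels are uncertain.

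Genes of folding in the endoplasmic reticulum rose where they passed the test. Of 29 tested genes 24 rose and none fell, with a median of 0.34, and 1 was called, the transcription factor gene Creb3l2 at 151, 148 and 135 CPM in control and 412, 368 and 353 CPM after TGF-β2. Over all tested genes 25.5% rose. With upper-quartile scaling 18 of the list rose, with a median of 0.27. By library size alone 17 rose, with a median of 0.23. Hspa5, which encodes the chaperone BiP, rose by 0.43 ± 0.067, Hyou1 by 0.62 ± 0.049 and Xbp1 by 0.45 ± 0.054. The adjusted p-value of Hspa5, 0.00428, was 0.0536 without the block and 0.0525 without replicate 2.

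Antioxidant and glutathione genes fell more often than they rose. Of 41 tested genes 28 fell, 4 rose, 5 were called lower and none higher, and the median was -0.35. Hddc3 and Ucp2, which the study picked from these libraries, are among the 41. The extracellular superoxide dismutase gene Sod3 was at 419.6, 316 and 294 CPM in control and 113, 99.6 and 171 CPM after TGF-β2 and Nqo1, a target of NRF2, at 47.0, 49.2 and 128 CPM in control and 20.3, 20.3 and 44.3 CPM after TGF-β2. Of the glutathione transferase genes, Mgst1 was at 39.3, 39.1 and 47.0 CPM in control and 7.51, 9.11 and 9.51 CPM after TGF-β2 (-2.16 ± 0.077) and Gsta4 at 10.8, 13.3 and 18.8 CPM in control and 2.77, 3.15 and 3.51 CPM after TGF-β2 (-2.06 ± 0.12). Nfe2l2, which encodes NRF2, fell by 0.53 ± 0.096 on the log2 scale, Gclm by 0.65 ± 0.13 and Srxn1 by 0.67 ± 0.11, and their adjusted p-values were 0.0605, 0.0311 and 0.0719 without the block, where that of Nqo1 was 0.0933. Of the NADPH oxidase genes, 7 passed the filter. Nox4 was called higher, with the values given above.

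Ucp2, Hddc3 and Islr were examined because the study picked them from these libraries, so their values are no independent support for that choice. Ucp2, a mitochondrial carrier, was at 5.33, 135 and 107 CPM in control and 9.58, 181 and 145 CPM after TGF-β2. Both libraries of replicate 1 were far below those of replicates 2 and 3, so that the groups overlapped, and within the pairs the level rose each time, with a log2 fold change of 0.64 (SE 0.089, adjusted p = 0.00302) that was not detectable without the replicate block (adjusted p = 0.767). Hddc3, a hydrolase gene, was at 15.2, 13.3 and 9.71 CPM in control and 8.97, 7.53 and 7.90 CPM after TGF-β2, with -0.53 (SE 0.12, adjusted p = 0.0164). Its adjusted p-value became 0.0557 without replicate 1, 0.114 without replicate 2 and 0.0739 without the block. Islr, a mesenchymal surface protein gene, was at 31.0, 40.8 and 33.1 CPM in control and 13.1, 26.2 and 15.4 CPM after TGF-β2, with -0.88 (SE 0.12, adjusted p = 0.00306), and an adjusted p-value of 0.0666 without the block. All 3 genes overlap another annotated gene.

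More proliferation genes fell than rose. Of 51 cell cycle and replication genes 7 were called lower, 32 fell at any fold and 1 rose, with a median of -0.57. Without the replicate block 1 was called lower, and by library size alone 12. Of the mitotic genes, Aurkb was at 31.3, 18.3 and 11.7 CPM in control and 14.7, 8.86 and 4.25 CPM after TGF-β2, Cdc20 had -1.02 ± 0.089 and Plk1 -0.90 ± 0.088. Of the replication genes, Mcm6 was the 1 that rose (0.46 ± 0.051), and Rrm2 fell (-0.57 ± 0.06). Mki67, a proliferation marker, was at 119, 69.7 and 40.2 CPM in control and 76.7, 39.4 and 19.0 CPM after TGF-β2 (-0.74 ± 0.089). The proliferation genes spread widely between replicates in both groups, and without the block the adjusted p-values of Aurkb, Cdc20, Plk1, Mki67, Mcm6 and Rrm2 were 0.182, 0.173, 0.355, 0.426, 0.246 and 0.085. Cyclin D1 fell from 137, 154 and 363 CPM to 35.4, 40.1 and 78.8 CPM (-1.93 ± 0.068 for Ccnd1), and the CDK inhibitor genes Cdkn1a (-0.15, adjusted p = 0.0519) and Cdkn2b (-0.26, adjusted p = 0.0621) did not pass, although they did by library size alone (adjusted p = 0.00917 and 0.0212). Gadd45b, a known TGF-β target, was at 44.4, 45.2 and 34.9 CPM in control and 90.3, 94.3 and 94.9 CPM after TGF-β2.

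The response of WT fibroblasts to the same treatment was compared gene by gene. In a fit of all 12 libraries with replicate numbers as blocks within each genotype, the interaction of genotype and TGF-β2 was under an adjusted p-value of 0.05 in 0 of 12024 genes (0%) by edgeR, with a minimum of 0.144. At an unadjusted p under 0.05 there were 901 genes, or 7.49%, of which 498 had the lower value in Nox4 KO and 403 the higher. DESeq2 gave 23 genes at an adjusted p under 0.05, and edgeR gave 1 without WT replicate 1 and 0 without the replicate block, where 307 genes were at an unadjusted p under 0.05. Of the 1214 genes called in Nox4 KO, 1212 had the same sign in WT and 1146 of these had an adjusted p under 0.05 there. The genes called higher in Nox4 KO changed by a median of 1.55 in Nox4 KO and 1.58 in WT on the log2 scale, and those called lower -1.38 and -1.46, although the choice on Nox4 KO values favours larger values there.

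**Figure D5:**
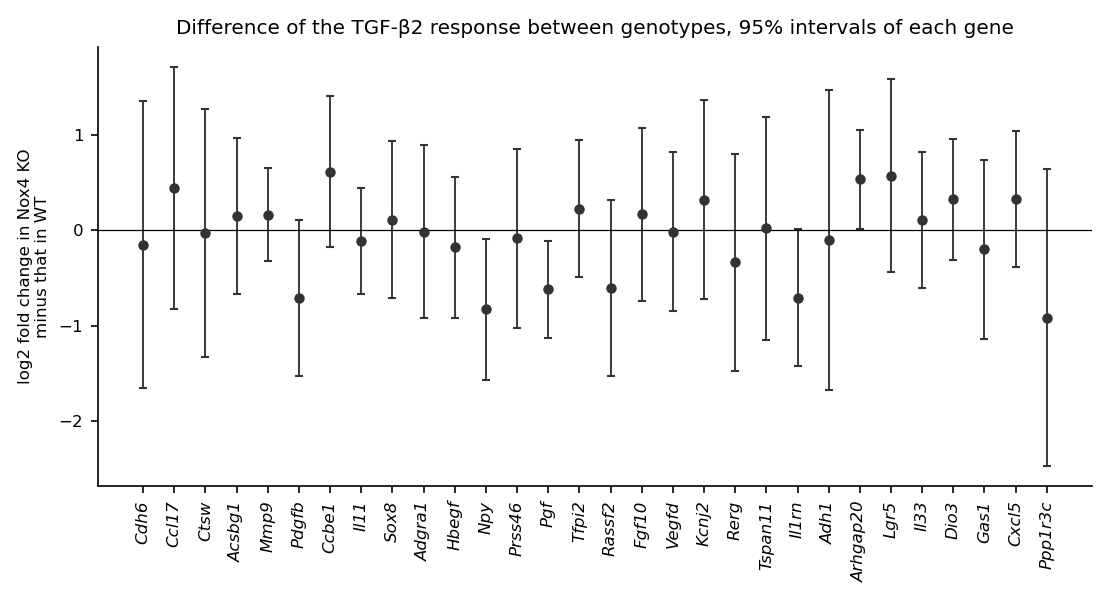
Log2 fold change after TGF-β2 in Nox4 KO minus that in WT (vertical axis) for the 15 largest rises and 15 largest falls in Nox4 KO, with 95% confidence intervals of each gene from the fit of 12 libraries, not corrected for the number of genes. The intervals of Npy, Pgf and Arhgap20 leave out 0, and those of the other genes include it.

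The intervals of single genes give the range of difference between the genotypes. For Nox4 the difference Nox4 KO minus WT was -0.12 (95% interval -0.50 to 0.26) on the log2 scale, for Acta2 -0.19 (95% interval -0.79 to 0.41), for Ccn2 0.04 (95% interval -0.72 to 0.80), for Il11 -0.11 (95% interval -0.67 to 0.45) and for Col1a1 0.063 (95% interval -0.39 to 0.52). For Ucp2 it was -0.48 (95% interval -1.07 to 0.11), for Hddc3 -0.35 (95% interval -0.84 to 0.13) and for Islr -0.36 (95% interval -0.76 to 0.043). Each of these intervals includes 0, and those of the first 5 genes lie within 2-fold in either direction. Among the genes called in Nox4 KO the 5 smallest interaction p-values were those of Cebpb, H1fx, Aqp5, Plxna4 and Tbc1d2b. Cebpb, an adipogenic and inflammatory transcription factor, was at 17.0, 19.7 and 11.6 CPM in control and 6.97, 6.69 and 4.89 CPM after TGF-β2 in Nox4 KO and at 15.3, 14.7 and 13.8 CPM in control and 10.6, 12.7 and 8.97 CPM after TGF-β2 in WT, a difference of -0.86 (95% interval -1.21 to -0.51). Plxna4, a semaphorin coreceptor, was at 19.1, 14.0 and 12.8 CPM in control and 80.6, 53.9 and 48.7 CPM after TGF-β2 in Nox4 KO and at 18.8, 16.2 and 24.8 CPM and 48.1, 26.3 and 56.7 CPM in WT, with a difference of 0.95 (95% interval 0.51 to 1.39). Aqp5, an aquaporin, differed by -0.87 (95% interval -1.26 to -0.48) and Tbc1d2b by 0.44 (95% interval 0.23 to 0.65). H1fx, a linker histone gene at low level, differed by -1.36 (95% interval -1.97 to -0.76). None passed after adjustment. Without the block the adjusted p-value of H1fx for its fall in Nox4 KO, 0.0056, was 0.069.

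At the edges of the rules, Spc25 was the called gene nearest to the 2-fold limit and Efemp1 the nearest outside it. Efemp1 was at 212, 326 and 791 CPM in control and 105, 159 and 332 CPM after TGF-β2, with replicate 3 the highest in both groups. Mok was the tested gene nearest to the filter, with mean levels of 0.872 ± 0.159 CPM and 1.00 ± 0.0741 CPM (SD, n = 3), and Guca1a, at 0.998 CPM in control and 0.563 CPM after TGF-β2, was the nearest left out.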

How the data were processed

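RNA-seq was done on 12 libraries of primary mouse skin fibroblasts, 3 in each group of genotype and treatment, with group and replicate number read from each label. The authors deposited raw read counts per gene. Reads were aligned to GRCm38, and the submitters' processing notes name CASAVA 1.8.2, STAR 2.4 and featureCounts 1.4.6. Reads mapped to several places were discarded, which makes near-identical genes uncertain, and use of strand is not given in the sources used here. No column was without a sample (0).

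Differential expression was tested with edgeR 4.0.16 (limma 3.58.1, R 4.3.3) on the counts, by the quasi-likelihood test with TMM scaling in a model across all genes, and p-values were adjusted by Benjamini-Hochberg. The fit of the 6 Nox4 KO libraries had the replicate number as a block, leaving 2 residual degrees of freedom. The labels give only numbers as the source of the pairing. The deviations of same-numbered libraries from their group means correlated with r of 0.744, 0.670 and 0.734 for numbers 1, 2 and 3, each library best with its own number. In WT these values were 0.077, 0.422 and 0.529. Levels are plain CPM, and the limit of 3 counts covers counting error only. The 95% intervals of the genotype difference come from the fit and include the spread between replicates. No 2 libraries of a Nox4 KO group agreed within sampling noise.

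The members and gene lists were chosen with earlier results of these data known, and so no p-value was adjusted over a list and no set test was run. Genes were named by rule, namely those the study names (Nox4, Acta2, Ucp2, Hddc3, Islr), the 15 largest rises and falls among called genes without overlap and with at least 5 CPM in the higher group, the 12 smallest adjusted p-values and the 12 most abundant called genes in each direction, list members as examples, and the 5 smallest interaction p-values among called genes. Some genes that met these rules are not reported here. Promoter sequences came from RefSeq (GRCm38.p6). On simulated counts for 11935 genes the fit put 93.9% of 66 genes changed by 1 on the log2 scale under an adjusted p of 0.05. For 67 genes changed by 2 the share was 100%, and 6.22% of the 209 genes that passed were false. No fold limit was applied there, and far fewer genes were changed than in the data. These shares therefore do not carry over to the called genes. Alternatives covered the block, DESeq2 1.42.0, scaling, filters, the estimate of spread, the libraries in the fit and left-out libraries.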

Additional observations from a re-analysis of the deposited data

How the results depend on the processing

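The Nox4 KO counts moved with the pairing. Without the replicate block 1805 genes rose and 1782 fell, and 941 of the 949 genes then called were among the 1214 called with it, none of which changed sign. By library size alone 1925 rose, a filter of 5 CPM called 560 lower, of fewer genes tested, and a test against the 2-fold limit itself called 169 higher and 364 lower. Leaving out a pair, or a single library without the block, gave 177 to 381 called higher, 356 to 925 called lower, 639 to 3899 that rose and 638 to 3901 that fell. The lowest values came without the block and without the Nox4 KO TGF-β2 library of replicate 2. The interaction count was 23 by DESeq2 and 0 to 1 with a pair left out. The cause was not tested.

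Of 363 named genes, 289 stayed on the same side of the threshold without the block and 74 no longer passed, while 359 stayed with DESeq2 and also 359 by library size alone. Those that changed sign when a pair or library was left out had log2 fold changes of -0.27 to 0.082 for Acta2, -0.010 to 1.13 for Ucp2, -0.59 to 0.063 for Cdkn2b, -0.22 to 0.085 for Cnn1, -0.13 to 0.12 for Col1a1, -0.19 to 0.15 for Col1a2, -1.30 to 0.57 for Lyz2 and -0.33 to 0.70 for Tgfb2. At the depth of these libraries the fold of a gene at 3 reads or fewer in a group is imprecise. With 0 reads only a lower bound on its size can be given.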

Other observations

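Some genes outside the lists, chosen after their values were seen and without a test of any group, changed in Nox4 KO cells. The connexin gene Gja3 rose and was at 0.967, 2.37 and 0.798 CPM in control and 3.78, 6.74 and 6.50 CPM after TGF-β2 (2.15 ± 0.28, a log2 fold change with its SE, as below).

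The aryl hydrocarbon receptor gene Ahr was at 54.3, 34.8 and 34.5 CPM in control and 13.6, 10.8 and 9.06 CPM after TGF-β2 (-1.77 ± 0.08). A known target of the receptor, Cyp1b1, a cytochrome P450, was at 314, 323 and 467 CPM in control and 55.5, 59.6 and 166 CPM after TGF-β2 (-2.04 ± 0.21), and the repressor gene Ahrr, another target, at 5.17, 4.84 and 6.16 CPM in control and 1.33, 1.51 and 2.63 CPM after TGF-β2 (-1.49 ± 0.17). Tiparp, a further target, fell by 0.33 ± 0.068 on the log2 scale, under 2-fold, with an adjusted p of 0.0102 that became 0.0849 without replicate 2. Some alcohol and aldehyde dehydrogenase genes fell as well. Adh7 was at 18.6, 17.0 and 22.1 CPM in control and 4.50, 5.34 and 5.03 CPM after TGF-β2 (-1.84 ± 0.11), Aldh1l1, a folate enzyme gene, at 15.6, 11.8 and 7.43 CPM in control and 3.52, 2.72 and 1.99 CPM after TGF-β2 (-1.97 ± 0.10), Aldh3b1 at 8.62, 6.83 and 8.14 CPM in control and 1.10, 1.30 and 1.57 CPM after TGF-β2 (-2.47 ± 0.16), and the abundant mitochondrial Aldh2 fell by 0.57 ± 0.061 on the log2 scale.

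Genes best known from the cornified layer of the epidermis were detected at low level and moved in both directions. Ivl, involucrin, was at 2.01, 2.35 and 2.34 CPM in control and 10.3, 6.10 and 5.12 CPM after TGF-β2 (1.74 ± 0.24). Sbsn, suprabasin, was at 29.9, 23.5 and 26.8 CPM in control and 7.92, 7.42 and 10.7 CPM after TGF-β2 (-1.53 ± 0.12) and Cdsn, corneodesmosin, at 5.46, 3.74 and 6.08 CPM in control and 0.723, 0.776 and 1.64 CPM after TGF-β2 (-2.20 ± 0.21). The basal keratinocyte markers Krt5 and Krt14 had at most 11 reads in any of the 6 libraries.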
